A study of Drosophila melanogaster with 6 samples.

Results

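Segment polarity genes, the class that sets the pattern inside each body segment of the fly, were compared between foxL1 null and wild-type Drosophila melanogaster embryos. They were taken as 10 named genes of the Wingless and Hedgehog circuit, en, inv, wg, hh, gsb, gsb-n, ptc, ci, arm and nkd, of which 8 had a probe set naming that gene alone, among 11982 genes with such a probe set. Each of the 8 had 1 such probe set, and wg and arm were not analysed here. The null embryos, labelled as a knockout, carried the alleles foxLCr and foxL1del of the forkhead factor gene FoxL1, and the wild-type embryos were Oregon R. Embryos of both genotypes were whole and unsorted, labelled as stages 11 to 15, collected for 8 h at room temperature and aged for a further 11 h, with 3 Affymetrix Drosophila Genome 2.0 arrays per genotype from samples described as biologically independent. Each genotype was a stock of its own, so genotype and stock cannot be told apart.

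In the epidermis of the fly embryo, a row of cells in each segment makes the homeodomain proteins Engrailed and Invected and secretes the signal Hedgehog. The neighbouring row receives Hedgehog through Patched and Smoothened, which act on the transcription factor Cubitus interruptus, and secretes Wingless, a Wnt protein that acts through the beta-catenin Armadillo to keep engrailed on. The Pax proteins Gooseberry and Gooseberry-neuro act in the same stripes and in the nervous system, and Naked cuticle is a Wingless-induced inhibitor of the Wingless signal. In RNA from whole embryos, fewer cells of a type and less RNA per cell cannot be told apart.

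The values are log2 signals from robust multi-array averaging (RMA), and a difference is null minus wild type on that scale. The median signal of an array was 4.87 to 4.94 in null and 4.96 to 5.08 in wild-type embryos. Arrays correlated at 0.987 to 0.993 within the null group, 0.990 to 0.995 within the wild type and 0.980 to 0.989 between them (Pearson's r across probe sets, which are not independent replicates). The FoxL1 probe set read 4.23, 4.35 and 3.37 in null arrays 1 to 3, against 4.85, 5.12 and 5.01 in wild-type arrays 1 to 3. The FoxL1 difference was -1.01 (SE 0.25, limma adjusted p = 0.0489), in the direction of the labels, and the call was lost without null array 1 or any single wild-type array (adjusted p of up to 0.155). It was also lost after centring every array on its median (-0.90, limma adjusted p = 0.0641), after a further quantile normalization (-0.93, 0.0761) and in a plain linear model (0.220), and it held with the titles' replicate numbers as a block (0.0120). The labels do not say which stretch of FoxL1 is missing.

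All 8 measured segment polarity genes had a lower mean in null than in wild-type embryos, but only gsb passed limma's threshold, an adjusted p under 0.05 over all 18769 probe sets. The 8 differences ran from -1.17 (gsb) to -0.21 (ptc), with a median of -0.47, beside a median of -0.07 over all genes. Of all genes, 60.0% had a difference below 0. At an unadjusted p under 0.05, 5 of the 8 were lower and 0 higher, beside 15.1% of all genes. The threshold called 1 of the 8 as lower and 0 as higher, where it called 4.00% of all genes lower and 6.24% higher. The null and wild-type values of 2 of the 8, gsb and ci, did not overlap, with the null lower, as was so for 17.8% of all genes. Centring every array on its median shifted the middle of all probe set differences to 0.09 from -0.03. All 8 then stayed below 0, with a median of -0.35, as 42.0% of all genes did, and 2 of the 8 were lower at an unadjusted p under 0.05, beside 7.74% of all genes. The replicate numbers of the titles, taken to pair the arrays, raised the calls to 4 of 8 when fitted as a block, namely gsb, ci, inv and gsb-n, all lower. The same fit called 9.09% of all genes lower and 7.92% higher. That pairing was read from the values of these same arrays and is not settled, which limits every call made with the replicate block. With 3 arrays per genotype, an exact permutation test of 1 gene cannot give a p below 0.1.

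**Figure D1:**
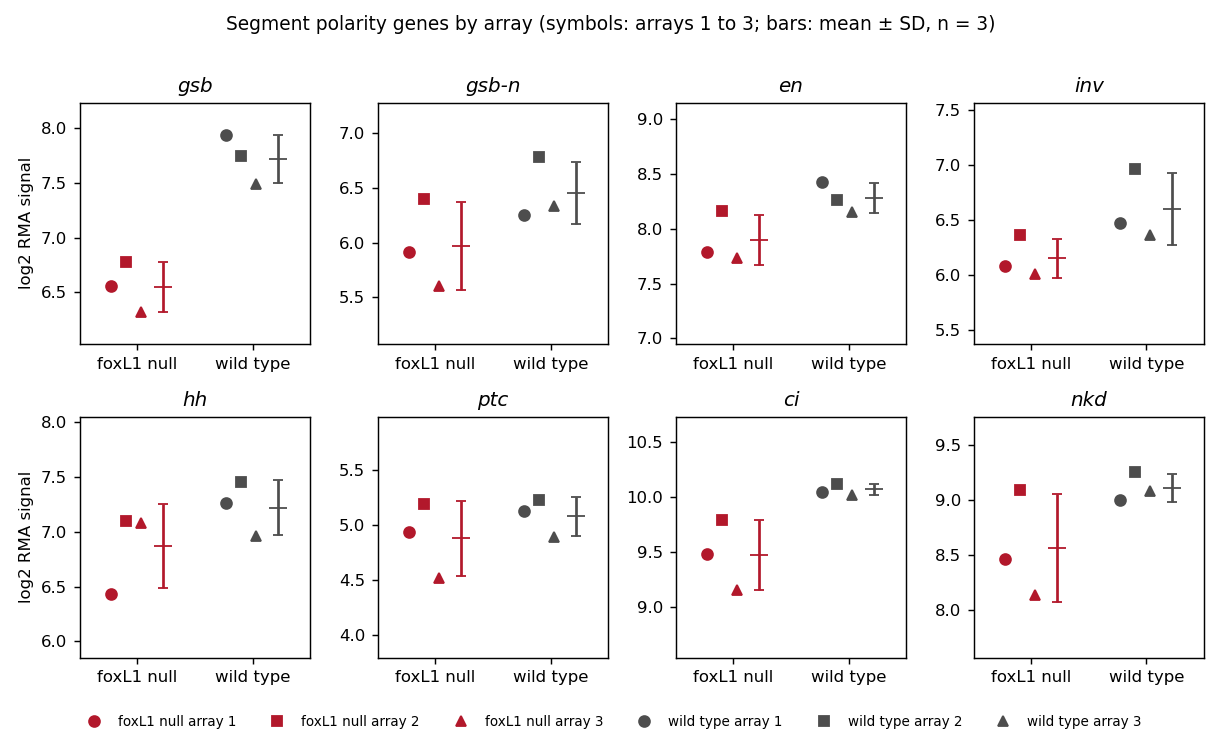
Log2 RMA signal of the 8 measured segment polarity genes, 1 panel per gene, with foxL1 null arrays at the left and wild-type arrays at the right; symbols stand for arrays 1 to 3 and bars for the mean ± SD (n = 3). The null arrays of gsb lie at 6.32 to 6.78, below all wild-type arrays at 7.49 to 7.94, and array 2 is the highest null array in all 8 panels; every panel spans the same height on the log2 axis.

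The gooseberry gene gsb, a Pax gene induced by the pair-rule factor Paired and needed to keep wingless on, fell most. Its signal was 6.56, 6.78 and 6.32 in null arrays 1 to 3, against 7.94, 7.74 and 7.49 in wild-type arrays 1 to 3. The highest null value lay 0.71 below the lowest wild-type value. The gsb mean was 6.55 ± 0.23 in null and 7.72 ± 0.22 in wild-type embryos (SD, n = 3 each), a 2.25-fold lower level (limma log2 difference -1.17, SE 0.16, 95% interval -1.55 to -0.79, adjusted p = 0.00571). Only 0.693% of all genes had a difference as low or lower. The call held without any single array, with differences of -1.29 to -1.05 (adjusted p of 0.00716 to 0.0301), and it was lost only in a plain linear model fitted to each probe set by itself (adjusted p = 0.0717).

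Its neighbour gsb-n, a Pax gene mainly of the nervous system with no other gene between it and gsb, differed less. It read 5.91, 6.40 and 5.60 in null arrays, against 6.25, 6.78 and 6.33 in wild-type arrays. The groups overlapped, since null array 2 lay above wild-type arrays 1 and 3. The gsb-n difference was -0.49 (SE 0.22, 95% interval -1.01 to 0.04, limma adjusted p = 0.267), and -0.49 with an adjusted p of 0.0373 with the replicate block. The gsb signal exceeded that of gsb-n by 0.65, 0.39 and 0.72 within null arrays, against 1.69, 0.96 and 1.17 within wild-type arrays. This within-array gap was thus smaller in every null array, by 0.69 on average, at the smallest p that an exact permutation test of 3 against 3 can give, 0.1 (2-sided, 0.2 adjusted over the 2 neighbouring pairs tested, gsb with gsb-n and en with inv).

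The homeobox gene en, which marks the posterior cells of each segment, did not pass the threshold. Its signal was 7.79, 8.16 and 7.73 in null arrays, against 8.43, 8.26 and 8.15 in wild-type arrays. Null arrays 1 and 3 lay below all wild-type arrays and null array 2 reached just above wild-type array 3. The en mean was 7.90 ± 0.23 in null and 8.28 ± 0.14 in wild-type embryos (SD, n = 3 each; limma log2 difference -0.39, SE 0.14, 95% interval -0.72 to -0.05, adjusted p = 0.174). It was called in 0 of the 15 alternatives (adjusted p of 0.0579 to 0.429).

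Its paralogue and neighbour inv, with no gene between them, read 6.08, 6.36 and 6.01 in null arrays, against 6.47, 6.97 and 6.36 in wild-type arrays. The groups met at 6.36, the value of null array 2 and of wild-type array 3, and wild-type array 2 stood highest. The inv difference was -0.45 (SE 0.18, 95% interval -0.87 to -0.03, limma adjusted p = 0.200), with an adjusted p of 0.0386 with the replicate block. Within arrays the en signal exceeded that of inv by 1.74 ± 0.05 in null and 1.68 ± 0.34 in wild-type embryos (SD, n = 3 each), a difference of 0.06 (exact permutation p = 0.9, 2-sided, and 0.9 adjusted over the 2 pairs). Both probe sets carry the ending that the array maker gives to sets whose probes may also match transcripts of related genes, so signal shared by these paralogues was not separated.

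The Hedgehog ligand gene hh did not differ beyond the spread between arrays. It read 6.43, 7.10 and 7.08 in null arrays, against 7.26, 7.45 and 6.96 in wild-type arrays. Null array 1 stood lowest and null arrays 2 and 3 both lay above wild-type array 3. The hh difference was -0.35 (SE 0.21, 95% interval -0.83 to 0.14, limma adjusted p = 0.407), and -0.13 without null array 1.

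The receptor gene ptc, itself a target of the Hedgehog signal, had the smallest difference of the 8. Its signal was 4.94, 5.19 and 4.52 in null arrays, against 5.13, 5.23 and 4.89 in wild-type arrays. Null arrays 1 and 2 lay within the wild-type range, and only null array 3 lay below it. The ptc difference was -0.21 (SE 0.18, 95% interval -0.63 to 0.22, limma adjusted p = 0.596), and -0.02 without null array 3.

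The transcription factor gene ci, whose product carries the Hedgehog signal to its target genes, came closest to the threshold after gsb. It read 9.48, 9.79 and 9.15 in null arrays, against 10.05, 10.12 and 10.02 in wild-type arrays. The wild-type arrays lay within 0.11 of each other and above every null array. The ci mean was 9.47 ± 0.32 in null and 10.07 ± 0.05 in wild-type embryos (SD, n = 3 each; limma log2 difference -0.59, SE 0.16, 95% interval -0.97 to -0.21, adjusted p = 0.0727). The call of ci was made with the replicate block (-0.59, adjusted p = 0.0237), without null array 2 (-0.75, 0.0222), after a further quantile normalization (0.0488) and with array weights (0.0182).

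The Wingless antagonist gene nkd read 8.46, 9.09 and 8.13 in null arrays, against 9.00, 9.25 and 9.08 in wild-type arrays. Null arrays 1 and 3 lay well below the wild-type arrays, and null array 2 lay among them. The nkd difference was -0.55 (SE 0.23, 95% interval -1.08 to -0.02, limma adjusted p = 0.213). Without null array 2 nkd passed, at -0.82 (adjusted p = 0.0211), and the calls then numbered 3, gsb, ci and nkd.

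**Figure D2:**
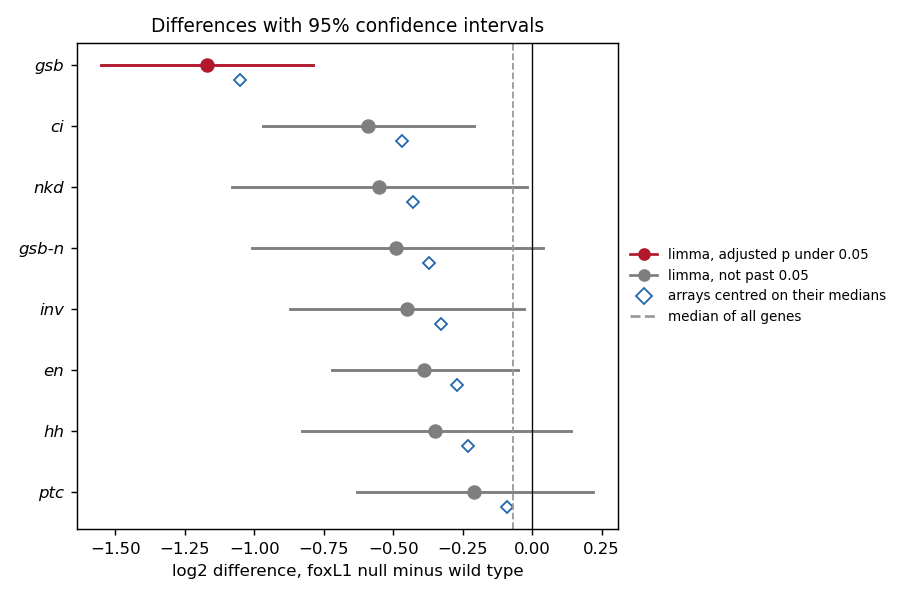
Log2 difference, foxL1 null minus wild type, of each measured segment polarity gene with its 95% confidence interval from limma (circles and lines, n = 3 arrays per genotype) and after centring of each array on its median (diamonds). All 8 circles and diamonds lie below 0, gsb alone is past the threshold, and the intervals of gsb-n, hh and ptc reach above 0.

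The 8 genes had the same highest null array, but not the same order of all arrays. Null array 2 was the highest null array for 8 of the 8, as it was for 38.7% of all genes, and null array 3 was the lowest for 7 of the 8, as for 49.1% of all genes. Wild-type array 2 was the highest wild-type array for 6 of the 8, and for 40.0% of all genes. Relative to each gene's wild-type mean, the median of the 8 was -0.56, -0.12 and -0.72 in null arrays 1 to 3, against 0.01, 0.14 and -0.16 in wild-type arrays 1 to 3. Null array 2 thus lay nearest to the wild type. The summed level of 6 ectoderm and epithelium markers also peaked in array 2 of each genotype, at 11.71, 12.08 and 11.64 in null and 11.75, 12.08 and 11.98 in wild-type arrays. That of 3 muscle markers was lowest there, at 13.38, 12.86 and 13.14 in null and 13.36, 13.03 and 13.37 in wild-type arrays. The neuroblast, neuron and glia marker lists also peaked in array 2 of each genotype, and the late cuticle list was lowest there. The maternal RNA and blastoderm lists followed neither pattern in both genotypes. In null array 3 the 3' actin control exceeded the 5' one by 0.20, a measure of how intact the RNA was, and in the other 5 arrays by 0.67 to 0.82. The same gap was 0.71 for eIF-4a in null array 3 and 0.88 to 0.93 in the other 5. For GAPDH, however, it was highest in null array 3, at 0.62, against 0.43 to 0.53 in the other 5. For 18S rRNA it was lowest in null array 2, at 1.02, then 1.18 in null array 3, and 1.24 to 1.44 in the remaining arrays. The part of these differences between arrays in the segment polarity values was not tested.

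Markers of the earliest stages moved with genotype, and limma without the replicate block called no marker of any tissue list. Of 5 measured maternal RNA markers, 4 rose and 0 fell, and the fifth, osk, was at -0.62 (SE 0.26, unadjusted p = 0.0441, limma adjusted p = 0.216). The other osk probe sets were at -0.64 and -0.24. The maternal markers' summed log2 level was 11.69 to 11.79 in null and 9.61 to 10.21 in wild-type embryos. Of 6 markers of the cellularising blastoderm, the stage before segments form, 3 fell and 0 rose, with a summed level of 8.13 to 8.81 in null and 9.50 to 9.79 in wild-type embryos. Limma called 0 of 6 ectoderm and epithelium markers (1 lower at an unadjusted p under 0.05), and their summed levels overlapped, at 11.64 to 12.08 in null and 11.75 to 12.08 in wild-type embryos. It called 0 of 5 neuroblast markers, the dividing neural cells in which gsb, gsb-n, en, hh and ptc are also active (2 lower at an unadjusted p under 0.05). The neuroblast list had a median difference of -0.58, and its summed level was 10.00 to 10.61 in null and 10.49 to 10.81 in wild-type embryos. With the replicate block, limma called its members wor, ase and dpn lower (adjusted p of 0.0297, 0.0263 and 0.0117). It did not call mira and insc (0.136 and 0.993). Limma also called 0 of 4 neuron, 0 of 4 glia, 0 of 3 muscle and 0 of 5 late cuticle markers, and none of these 4 lists had a member at an unadjusted p under 0.05. Their summed levels were 10.14 to 10.82, 10.23 to 10.43, 12.86 to 13.38 and 10.82 to 11.35 in null, against 10.15 to 10.34, 10.42 to 10.58, 13.03 to 13.37 and 11.25 to 11.47 in wild-type embryos. One cuticle marker, Cpr47Ea, lay near the floor of the arrays in both genotypes. Another, TwdlT, was called lower with the replicate block (-0.62, limma adjusted p = 0.0157), which called no ectoderm, neuron, glia or muscle marker. The part of the maternal, blastoderm and neuroblast differences in the segment polarity values was not tested.

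**Figure D3:**
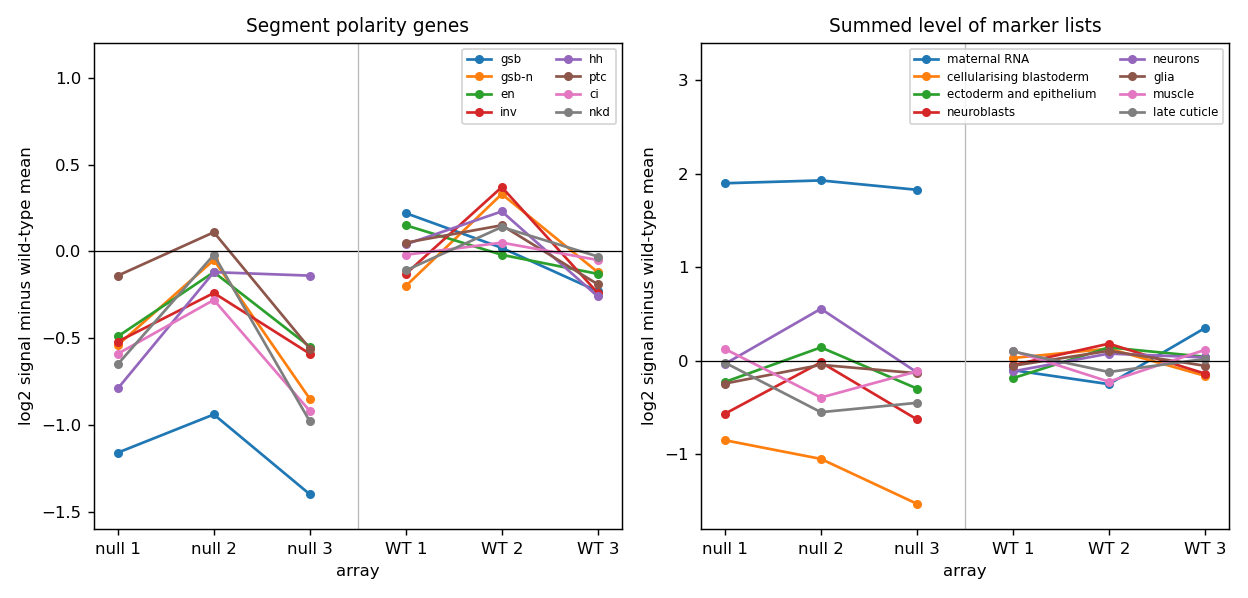
Log2 signal minus the wild-type mean, by array, for the 8 segment polarity genes (left) and for the summed level of each marker list (right), with the 3 null arrays left of the 3 wild-type (WT) arrays; lines join arrays of 1 genotype and imply no order. Null array 2 is the highest null array for all 8 genes, and the maternal RNA and blastoderm lists are the marker lists farthest from the wild type.

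The other listed genes, of the Wnt and Hedgehog pathways and of stripes and epidermis, did not move as one. Over 6 lists of 70 other genes, 41 were measured, and limma called 8 higher and 4 lower in null embryos. It called 6.24% of all genes higher and 4.00% lower. All 8 higher calls lay in the Wnt and Hedgehog lists, and all 4 lower calls in the list of stripe and epidermal genes. The median difference of the 41 was -0.10, beside -0.07 over all genes. Of the 12 called, 11 lost the call without at least 1 single array and only nej kept it with each of the 6 arrays left out. Leaving out null array 1 left 4 calls, and there were 1, 2 and 2 calls without wild-type array 1, 2 and 3. With the replicate block 8 were called higher and 8 lower, beside 7.92% and 9.09% of all genes. After centring 9 were called higher and 1 lower, beside 8.19% and 2.08% of all genes. In a plain linear model prd, gish, disp, ttv, smo, nej, ftz, slp2 and lin lost the call (adjusted p of 0.0633 to 0.199). The ttv call was lost with a trended robust prior too (limma adjusted p = 0.0554), and that of ftz with a further quantile normalization (0.0633) and with array weights (0.0674).

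Genes that release, carry or receive Hedgehog had differences of both signs, and only rises passed the threshold. Of 8 measured, 4 rose, 0 fell and 4 did not pass, with a median of 0.18. Limma called 6.24% of all genes higher and 4.00% lower. The signal transducer gene smo, which Patched holds in check, read 8.53, 8.66 and 9.00 in null arrays, against 8.07, 8.07 and 7.93 in wild-type arrays. All null arrays lay above all wild-type arrays (limma log2 difference 0.71, SE 0.14, adjusted p = 0.0226), though the call was lost without any single wild-type array (adjusted p of up to 0.104). The gene disp, whose product releases lipid-modified Hedgehog from the cells that make it, rose by 0.55 (SE 0.11, adjusted p = 0.0251). The heparan sulphate synthesis genes botv and ttv, needed for Hedgehog to spread, rose by 0.53 (SE 0.10, adjusted p = 0.0196) and 0.50 (SE 0.12, adjusted p = 0.0477). The calls of disp, botv and ttv were lost without null array 1 or 2 or any single wild-type array (adjusted p of up to 0.120, 0.0920 and 0.169).

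The Hedgehog co-receptor gene ihog, named after its value was seen, averaged 7.33 ± 0.50 in null and 8.26 ± 0.23 in wild-type embryos (SD, n = 3 each). No null array reached a wild-type array, yet the difference of -0.93 (SE 0.25, limma adjusted p = 0.0640) did not pass. With the replicate block it did (adjusted p = 0.00410), as did the other co-receptor gene boi, at -0.57 (0.0268), and rasp, at -0.58 (0.0197), whose product attaches palmitate to Hedgehog. These last 2 were also named after their values were seen, and without the block their limma adjusted p was 0.119 and 0.103.

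Of 6 genes that act on the Hedgehog signal inside the receiving cell, 2 rose, 0 fell and 4 did not pass. Over all genes, limma called 6.24% higher and 4.00% lower. The median of the 6 was 0.21, and 1 of them was lower at an unadjusted p under 0.05. The co-activator gene nej, the fly CREB-binding protein that works with Cubitus interruptus, read 8.92, 9.33 and 8.79 in null arrays, against 7.90, 7.70 and 8.01 in wild-type arrays. The groups stood clearly apart, at 1.15 (SE 0.16, limma adjusted p = 0.00602). A second, dimmer nej probe set differed by 1.26 (SE 0.48, adjusted p = 0.180), with null array 2 at 7.72 and null arrays 1 and 3 at 5.85 and 5.67, against 5.10, 5.12 and 5.24 in wild-type arrays. The mean of both nej probe sets did not pass (adjusted p = 0.0526). The inhibitor gene Su(fu), whose product holds Cubitus interruptus back, rose by 0.51 (SE 0.10, limma adjusted p = 0.0214), a call lost without null array 2 or any single wild-type array (adjusted p of up to 0.105).

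Among Wnt genes, wls and gish passed by their brightest probe sets, both higher, where limma called 6.24% of all genes higher and 4.00% lower. Of 8 listed genes of ligands and release, 11 of reception and 15 inside the cell, 3, 5 and 7 were measured. Genes such as fz, fz2, arr, dsh, sgg, Apc and pan had no probe set of their own. Of 3 measured genes of Wnt ligands and their release, 1 rose, wls, which carries Wnt proteins to the cell surface, at 0.46 (SE 0.09, limma adjusted p = 0.0252). Its call was lost without null array 1 or 2 or any single wild-type array (adjusted p of up to 0.121). The gene por, whose product adds the lipid that Wnt proteins need, had a difference of -0.51 (SE 0.18, adjusted p = 0.153). Limma called 0 of 5 measured reception genes, with 0 at an unadjusted p under 0.05 by their brightest probe sets. For Drl-2, named after its values were seen, the brightest probe set was at 0.29 (SE 0.23, limma adjusted p = 0.546). A dimmer one was at -0.31 (SE 0.12, unadjusted p = 0.0337, limma adjusted p = 0.185). In that list the differences of Notum, a secreted Wnt inhibitor, and drl, a receptor of the Ryk family, were -0.44 (SE 0.20, adjusted p = 0.259) and -0.43 (SE 0.21, adjusted p = 0.297).

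Inside the Wnt-receiving cell 1 of 7 measured genes rose, the casein kinase gene gish, at 0.60 (SE 0.11, limma adjusted p = 0.0174), lost without null array 1 or wild-type array 1 or 3 (adjusted p of up to 0.0798). Of the co-repressor gene CtBP, the brighter probe set differed by 0.34 (SE 0.09, adjusted p = 0.0768) and passed after centring (0.0484), and the second passed in both fits, at 0.62 (SE 0.11, adjusted p = 0.0134) without centring.

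The stripe and epidermal genes, which lie before or after the segment polarity genes in the segmentation cascade, had differences below 0 in 12 of 12 measured, as did 60.0% of all genes. Of them 4 fell, 0 rose and 8 did not pass, with a median of -0.38. Limma called 4.00% of all genes lower and 6.24% higher. After centring, 10 of 12 were below 0 and 1 fell, beside 42.0% and 2.08% of all genes. For Dll, named after its values were seen, the brightest probe set was at -0.29 (limma adjusted p = 0.308). Its dimmer ones were at 0.08 (0.812) and -0.63 (0.0509, and 0.00844 with the replicate block). The pair-rule gene prd, an activator of gsb, read 5.98, 5.53 and 4.87 in null arrays, against 7.16, 6.87 and 6.39 in wild-type arrays. No null array reached a wild-type array, and the difference was -1.35 (SE 0.30, limma adjusted p = 0.0345). The call held after centring (adjusted p = 0.0274) and with the replicate block (0.000501), and was lost without null array 2 or 3 or any single wild-type array (up to 0.117). It was also lost with array weights (-0.94, limma adjusted p = 0.0554) and in a plain linear model (0.197).

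The other 3 that fell were the pair-rule gene ftz, the forkhead factor gene slp2 that helps to keep engrailed off in the wingless cells, and lin, needed for responses to Wingless in the dorsal epidermis. Their differences were -0.81 (SE 0.19), -0.76 (SE 0.19) and -0.58 (SE 0.13), with limma adjusted p of 0.0443, 0.0482 and 0.0337. All 3 lost the call after centring (0.0681, 0.0923 and 0.0966). They also lost it without null array 1 or wild-type array 1 or 2, slp2 and lin without wild-type array 3, slp2 and ftz without null array 3, and ftz without null array 2 (adjusted p of up to 0.150, 0.141 and 0.120 for ftz, slp2 and lin).

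**Figure D4:**
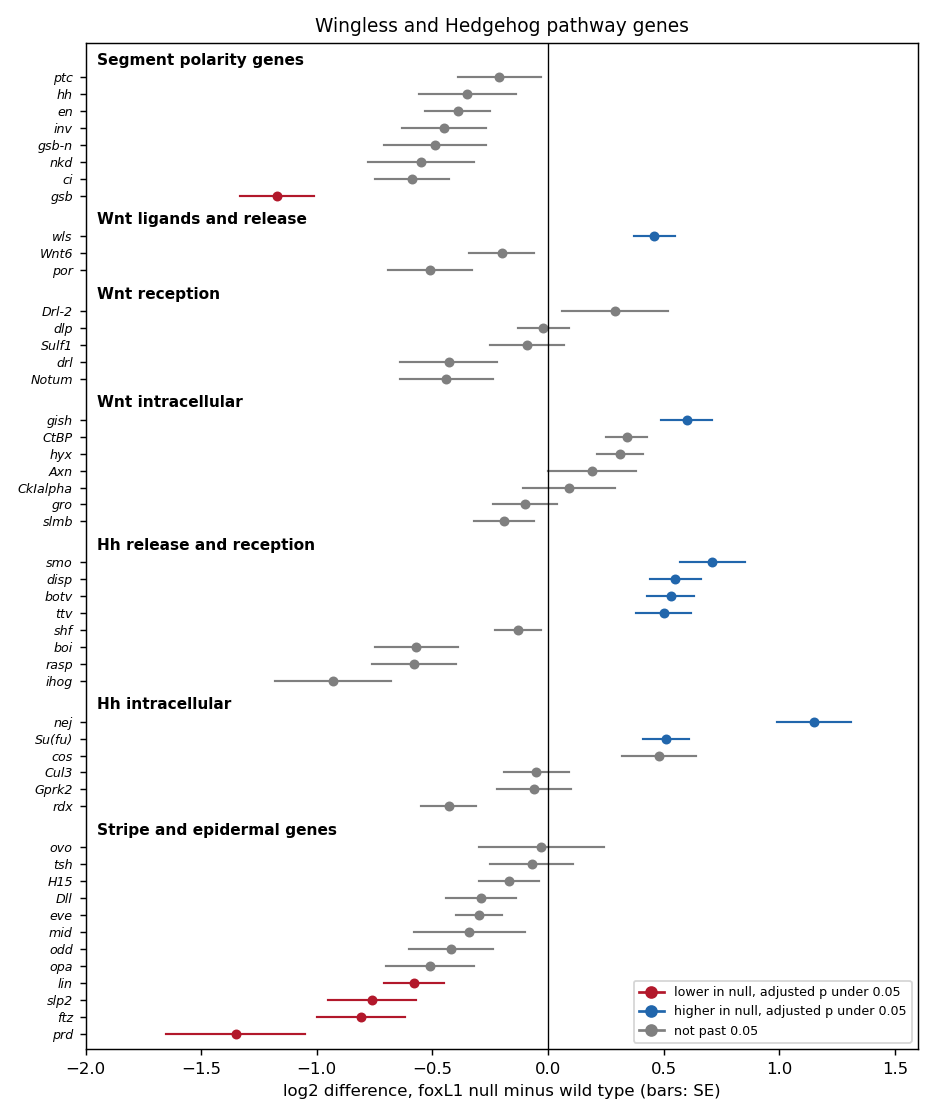
Log2 difference, foxL1 null minus wild type, of the segment polarity genes and of the 41 other measured pathway genes by list, with limma's standard error as bars. The called rises lie in the lists of Wnt release, Wnt intracellular and Hedgehog genes, and the called falls are gsb and 4 stripe and epidermal genes.

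Of all other genes, the 3 whose array profile lay nearest to that of gsb were RfC4, a clamp-loader subunit of DNA replication, Slbp, which binds histone mRNA, and Cks30A, a partner of cyclin-dependent kinases. Nearness was the root-mean-square distance over the 6 arrays, on the log2 scale, between signals taken relative to the wild-type mean. It was 0.076 for RfC4, 0.087 for Slbp and 0.097 for Cks30A. The other segment polarity genes, not picked by nearness, lay at 0.430 (ci) to 0.692 (ptc) from gsb. The differences of RfC4, Slbp and Cks30A were -1.14, -1.18 and -1.14, beside -1.17 for gsb. Since these 3 were picked as the nearest of all other genes, their small distances and like differences follow from the choice. Among the segment polarity genes the pairs nearest to each other were gsb-n with nkd, at 0.115, and ci with nkd, at 0.122.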

How the data were processed

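Expression was measured with 1 array per sample. The authors deposited log2 signals, made by robust multi-array averaging; the submitters' processing notes name Partek and RMA, and neither versions nor a genome build were found in the labels. RMA compresses changes of weak signals and, by scaling arrays to each other, can remove a shift shared by most transcripts. The 183 control probe sets were left out, and 18769 were tested. Of these, 13647 name 1 gene, 402 name several and 4720 are unnamed here; 13544 took the current symbol through the gene identifier (RefSeq, Release 6 plus ISO1 MT, used for names and gene order only) and 103 kept the older one. A gene was represented by its probe set of highest mean.

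Null minus wild type was fitted with limma 3.58.1 (lmFit, eBayes) in R 4.3.3 without covariates, with 2-sided p-values, the Benjamini-Hochberg adjustment over all 18769 probe sets and a threshold of 0.05. The fitting code was checked on simulated data with independent noise for each probe set and array. That noise lacks the deviations that genes share within an array here, so the check bears on no call. The number of arrays limits the precision. Values were identical between 2 arrays at 0.0852% of probe sets or fewer. Alternatives were a replicate block, each array left out, centring, quantile normalization, filters on dim probe sets at the 25th and 50th percentiles, a trended robust prior, array weights, a plain linear model and the mean of a gene's probe sets.

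The numbers in the titles are shared by the genotypes; deviations of same-numbered arrays from their group means correlated at 0.108, 0.544 and 0.224, and with all above 0.1 the numbers were treated as pairs, a reading of the data, not of the labels. Null array 3 with wild-type array 1 gave 0.266, so the pairing is not settled. The segment polarity genes, the 6 pathway lists and the marker lists were chosen with earlier results of these data known. Named are all segment polarity genes, FoxL1, every pathway gene past the threshold, the genes of smallest p where fewer than 2 of a list passed, and the 3 genes nearest in profile to the segment polarity gene of smallest p. Summed levels are the log2 of summed linear signals over a list's brightest probe sets.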

Additional observations from a re-analysis of the deposited data

How the results depend on the processing

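The direction of all 8 segment polarity differences held in the 15 alternatives run. The gsb call was lost in the plain linear model alone (-1.17, adjusted p = 0.0717), which called 0 of the 8 (2 at an unadjusted p under 0.05), 4 pathway genes and 562 probe sets. With the replicate block 4 of the 8 were called, ci (-0.59), inv (-0.45) and gsb-n (-0.49) besides gsb, and 2441 probe sets (1144 higher, 1297 lower) against 1472 (887 higher, 585 lower); no other call among the 8 changed. A further quantile normalization (-0.56) and array weights (-0.54) each called ci, making 2 of the 8, and array weights called 2460 probe sets. Leaving out 1 array gave 1 to 3 calls among the 8, 1 to 10 among pathway genes and 663 to 1513 probe sets, with ci at -0.75 to -0.43 and nkd at -0.82 to -0.34, each in a fit of fewer arrays; why the count differs between left-out arrays was not tested. Centring turned the split of the calls to 1179 higher and 324 lower.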

Other observations

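In the gene order of the RefSeq table, the 5 genes on either side of gsb included 6 measured ones, gsb-n among them, and limma called 0 of the 6 (1 at an unadjusted p under 0.05, differences of -0.49 to 0.16). Around en and around inv, 0 of 6 measured neighbours were called, with 3 at an unadjusted p under 0.05 each. These 2 sets of neighbours overlap, and en and inv are each among the other's 3. At that p, 1805 of all 11982 genes were lower and 1439 higher. The neighbours of hh, ptc and nkd included 2 called genes (Rassf and CG31457), 1 (Gle1) and 1 (Ugt316A1), of 9, 8 and 7 measured. All were higher in null embryos and named after their values were seen. Limma called 6.24% of all genes higher and 4.00% lower. The neighbours of ci included 0 called of 2 measured, with 0 at an unadjusted p under 0.05.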
